A study of Mus musculus with 10 samples.

Results

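Genes for enzymes and cofactors that digest milk protein and milk fat were followed in the jejunum of newborn mice, 7 in all: *Cym*, *Ctrb1*, *Olah*, *Pnliprp1*, *Pnliprp2*, *Cel* and *Clps*. They were selected by symbol from the 24062 gene symbols counted in each of 10 libraries, and all 7 were among the 17632 genes tested. *Cym*, *Ctrb1* and *Olah* were chosen because their counts fell strongly between the groups compared here, so their differences are given as a description, with no test. The other 4 genes were not chosen for a fall, and they were tested in the fit over all genes.

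Jejunum was collected at postnatal day 5 from wild-type (WT) control mice and from KSR23 mice, with 5 libraries per group. The study describes its controls as usually littermates, and the R23 parent line of the KSR23 mice as backcrossed to C57BL/6. KSR23 mice carry an interleukin-23 (IL-23) cassette in the ROSA26 locus, silent until a floxed STOP signal is removed, together with a cre recombinase under the keratin 14 promoter, so that the cytokine is made by keratinocytes and not by a promoter of the gut epithelium. The libraries held 25477722 to 32030950 counts in WT and 31195111 to 60948534 in KSR23. *Il12b*, which encodes the p40 subunit of IL-23, had 0 to 5 counts in the WT libraries and 9 to 40 in the KSR23 libraries, while *Il23a*, the p19 subunit, had 1 to 14 and 8 to 34. The study calls the libraries biological replicates, 5 per group. The labels do not say that each library came from a separate animal, so p-values measure the spread between these libraries. Replicates 4 and 5 of both groups were seldom extreme. Each was the highest or the lowest of its group at 8.54 to 18.4% of 9737 genes, against 45.7 to 75.6% for replicates 1 to 3, and values without replicates 4 and 5 are therefore given for the 7 genes and for the count of each gene list. Whether replicates 4 and 5 are independent of the others was not tested. If they are not, the SDs, SEs and p-values over 5 libraries per group are too small.

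Suckling mammals take in a diet of casein and triglyceride. Chymosin, the product of *Cym*, clots milk by cutting casein, and chymotrypsinogen B, the product of *Ctrb1*, is the zymogen of a serine protease that cuts after aromatic residues. Colipase, the product of *Clps*, is the cofactor that lets pancreatic lipase act on fat droplets coated with bile salts. The pancreatic lipase-related protein encoded by *Pnliprp2* and the bile salt-stimulated lipase encoded by *Cel* are the enzymes best known for the digestion of milk fat in the newborn. *Pnliprp1* encodes a close relative of pancreatic lipase with little lipase activity of its own. *Olah* encodes a thioesterase that releases medium-chain fatty acids from fatty acid synthase.

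The genes lie on 5 chromosomes of the mm10 build. In the GENCODE M21 annotation *Cym* spans chr3:107211293-107221732 on the minus strand, *Ctrb1* chr8:111686519-111691010 on the minus strand and *Olah* chr2:3341982-3397210 on the minus strand. *Cel* spans chr2:28555795-28563403 and *Clps* chr17:28558149-28560766, both on the minus strand. *Pnliprp1* (chr19:58728887-58744169) and *Pnliprp2* (chr19:58759719-58777534) are neighbours on the plus strand, 15.5 kb apart. No member shares an exon position with another gene or a stretch of 75 bases with another annotated transcript, so the counts are not split with copies of these genes.

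The 250 bases upstream of the RefSeq start (GRCm38.p6) were available for 6 of the 7 genes, and those of the genes on which the results turn are shown so that the strongly reduced genes can be set beside the neighbouring lipase genes. Each is written 5′ to 3′ on the strand of the gene, and capitals mark matches to 1 of 5 searched motifs. The windows are chr3:107221733-107221982 for *Cym*, chr8:111691011-111691260 for *Ctrb1*, chr2:3366570-3366819 for *Olah*, chr19:58728637-58728886 for *Pnliprp1* and chr19:58759473-58759722 for *Pnliprp2*. The *Olah* window lies inside the GENCODE span of the gene, because RefSeq places the start further downstream, and the last 4 bases of the *Pnliprp2* window lie inside the GENCODE gene.
Cym: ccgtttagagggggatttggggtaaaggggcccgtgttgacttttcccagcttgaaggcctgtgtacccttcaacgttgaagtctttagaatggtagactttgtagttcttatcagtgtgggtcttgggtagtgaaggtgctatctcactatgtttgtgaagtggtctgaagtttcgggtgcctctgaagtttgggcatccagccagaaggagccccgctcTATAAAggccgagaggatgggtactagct
Ctrb1: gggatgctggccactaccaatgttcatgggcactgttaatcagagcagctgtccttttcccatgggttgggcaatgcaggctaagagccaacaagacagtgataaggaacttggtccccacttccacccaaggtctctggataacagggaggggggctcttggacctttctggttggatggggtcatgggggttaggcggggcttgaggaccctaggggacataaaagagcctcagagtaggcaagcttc
Olah: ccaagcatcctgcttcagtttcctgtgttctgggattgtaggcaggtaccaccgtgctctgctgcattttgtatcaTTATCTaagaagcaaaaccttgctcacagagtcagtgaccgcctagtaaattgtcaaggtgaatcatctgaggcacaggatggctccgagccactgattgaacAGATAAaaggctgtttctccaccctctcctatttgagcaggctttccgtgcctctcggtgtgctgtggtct
Pnliprp1: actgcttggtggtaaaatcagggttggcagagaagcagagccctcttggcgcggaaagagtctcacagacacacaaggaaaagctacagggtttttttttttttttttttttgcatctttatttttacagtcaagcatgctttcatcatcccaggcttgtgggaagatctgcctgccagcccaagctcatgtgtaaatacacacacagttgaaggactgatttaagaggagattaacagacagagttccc
Pnliprp2: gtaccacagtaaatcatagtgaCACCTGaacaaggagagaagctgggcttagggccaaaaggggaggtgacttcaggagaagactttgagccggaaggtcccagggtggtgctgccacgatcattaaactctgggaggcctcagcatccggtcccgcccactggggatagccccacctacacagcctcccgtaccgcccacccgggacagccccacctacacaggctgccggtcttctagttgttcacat

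The motifs were searched on both strands and did not overlap each other. The TATA box (TATAAA) was found in the *Cym* window alone, at bases -29 to -24 from the start, and 12.4% of all 32851 windows of the same length hold it. The GATA-type motif AGATAA lay at -174 to -169 on the opposite strand and at -71 to -66 in the *Olah* window, against 9.99% of all windows with at least 1 match. The E-box CACCTG occurred at -228 to -223 in the *Pnliprp2* window and at 4 places in the *Cel* window, against 17.2% of all windows. The half-site AGGTCA occurred at 2 places upstream of *Cel* and in 14.0% of all windows, and the STAT-type motif TTCNNNGAA in none of the 6 windows and in 7.02% of all. No motif searched was shared by *Cym*, *Ctrb1* and *Olah*.

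Transcripts of the 7 genes summed to 1351 to 2184 CPM in the WT libraries and to 38.3 to 115 CPM in the KSR23 libraries. CPM are counts scaled to a library total of 1000000, after that total was adjusted by the TMM method (trimmed mean of M-values) of edgeR. Per length of transcript, *Cym* held 78.4 to 89.6% of the summed level in WT and 2.93 to 6.18% in KSR23, and *Clps* held 4.92 to 11.8% in WT and 85.5 to 90.2% in KSR23. The most abundant transcript of the set was thus the protease *Cym* in every WT library and the lipase cofactor *Clps* in every KSR23 library. *Cym* was chosen for its fall, so this change of shares restates that choice. The level of *Clps* itself was not higher in KSR23 (means of 74.8 CPM in WT and 49.7 CPM in KSR23). The libraries are of whole tissue, so fewer cells of a type and less RNA per cell cannot be told apart.

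**Figure D1:**
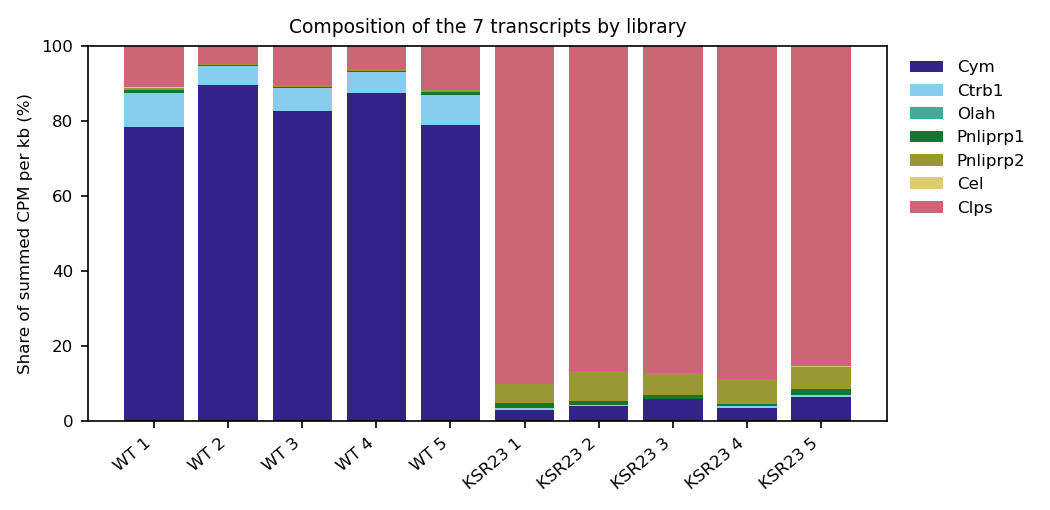
Stacked bars give the share (%) of each of the 7 transcripts in their summed CPM per kb of exon, for each of the 10 libraries. *Cym* fills 78.4 to 89.6% of the bar in the 5 WT libraries, and *Clps* 85.5 to 90.2% in the 5 KSR23 libraries. The change of shares restates that *Cym* was chosen for its fall.

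Ordered by level per length, the WT libraries had *Cym* at 1217 ± 316 CPM per kb (SD, n = 5), *Clps* at 122 ± 23.8, *Ctrb1* at 93.6 ± 8.81, *Pnliprp2* at 6.94 ± 0.85, *Pnliprp1* at 5.52 ± 2.26, *Olah* at 0.93 ± 0.62 and *Cel* at 0.75 ± 0.74 CPM per kb. The ranges of *Clps* and *Ctrb1* overlapped, as did those of *Pnliprp2* and *Pnliprp1* and those of *Olah* and *Cel*, so the order within those pairs was not larger than the spread. In the KSR23 libraries the order was *Clps* at 81.3 ± 37.2, *Pnliprp2* at 5.88 ± 2.62, *Cym* at 4.56 ± 3.26, *Pnliprp1* at 1.12 ± 0.65, *Ctrb1* at 0.31 ± 0.32 and *Cel* at 0.036 ± 0.056 CPM per kb (SD, n = 5), with *Olah* at 0 counts. There the ranges of *Clps* and *Pnliprp2* did not overlap, and the ranges of each of the other neighbours in the order from *Pnliprp2* to *Cel* did.

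*Cym* was among the most abundant transcripts of the WT jejunum and of middling abundance in the KSR23 jejunum. The WT libraries held 1167, 2032, 1389, 1786 and 1150 CPM in replicates 1 to 5. The KSR23 libraries held 1.98, 4.00, 11.1, 2.44 and 8.69 CPM, which is 124 to 308 counts per library. Every KSR23 library was far below every WT library, and the highest KSR23 libraries were replicates 3 and 5. The means were 1505 ± 390 and 5.63 ± 4.03 CPM (SD, n = 5), a 267-fold lower level and a fitted log2 fold change of -8.07 (SE 0.45), or -8.04 (SE 0.66) with replicates 1 to 3 alone. Ranked by mean CPM among the genes tested, *Cym* was number 50 in WT and number 9345 in KSR23.

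*Ctrb1*, the chymotrypsinogen gene, was the most even of the 7 genes among WT libraries. The WT values were 94.5, 80.0, 73.2, 80.7 and 82.5 CPM, a coefficient of variation of 9.41%. The KSR23 libraries had 13, 2, 3, 12 and 27 counts, or 0.18, 0.064, 0.12, 0.21 and 0.76 CPM. KSR23 replicates 2 and 3 thus lay at or under the floor of 3 counts, while the lowest WT library had 1996 counts. The means were 82.2 ± 7.73 and 0.27 ± 0.28 CPM (SD, n = 5), a 306-fold difference and a fitted log2 fold change of -8.24 (SE 0.46), or -9.23 (SE 0.67) with replicates 1 to 3 alone. *Ctrb1* moved from rank 1907 in WT to rank 14619 in KSR23.

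*Olah*, the fatty acid thioesterase gene, was a low transcript that was detected in each WT library and in no KSR23 library. The WT libraries had 48, 7, 67, 36 and 79 counts, or 1.49, 0.25, 2.46, 1.04 and 2.97 CPM, and WT replicate 2 stood lowest. All 5 KSR23 libraries had 0 counts. Against a floor of 3 counts per library in the KSR23 group (a mean of 0.079 CPM), the level was at least 20.7-fold lower in KSR23 (16.2-fold with replicates 1 to 3 alone). The WT spread was wide, with a coefficient of variation of 66.5%. By fitted difference, *Olah*, *Ctrb1* and *Cym* ranked 2, 3 and 5 among the falls of all genes tested, which restates how they were chosen.

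**Figure D2:**
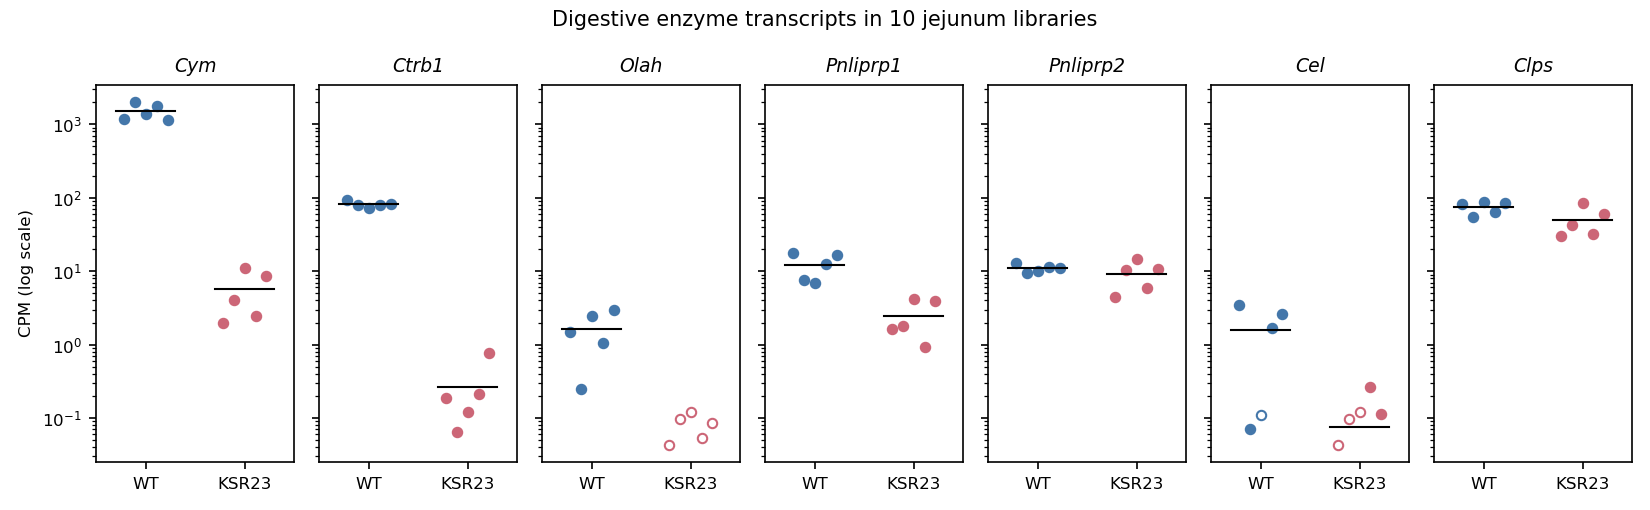
Points give CPM (log axis) of each gene in each of 5 WT (blue) and 5 KSR23 (red) libraries, lines give group means, and open points mark 0 counts drawn at the CPM that 3 counts have in that library. The groups are apart for *Cym*, *Ctrb1*, *Olah* and *Pnliprp1*, and overlap for *Pnliprp2*, *Cel* and *Clps*.

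Among the 4 genes that were not chosen for a fall, 2 were called lower in KSR23 (*Pnliprp1* and *Cel*) by edgeR's likelihood ratio test at a Benjamini-Hochberg adjusted p under 0.05, and none was called higher. Over all genes tested, 8.76% were called lower and 9.73% higher. The stricter quasi-likelihood test of edgeR called 1 of the 4 lower (*Pnliprp1*), against 6.91% of all genes. The 5 KSR23 values lay below all 5 WT values for 1 of the 4 (*Pnliprp1*), and for 6.99% of all genes. Replicates 1 to 3 without the others gave *Cel* and not *Pnliprp1* as a call of the likelihood ratio test, against 1.35% of all genes called lower. With 4 genes, such counts are not read as a property of the set.

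*Pnliprp1* was lower in each KSR23 library than in any WT library. The WT libraries held 17.9, 7.57, 6.94, 12.4 and 16.6 CPM. The KSR23 libraries held 1.62, 1.81, 4.13, 0.94 and 3.90 CPM. WT replicates 2 and 3 were the lowest of their group, and KSR23 replicates 3 and 5 the highest of theirs. The means of 12.3 ± 5.01 and 2.48 ± 1.44 CPM (SD, n = 5) gave a log2 fold change of -2.32 (SE 0.46), with an adjusted p = 3.46e-05 by edgeR's likelihood ratio test and 0.00502 by its quasi-likelihood test. Leaving out any 1 library kept the call, and with replicates 1 to 3 alone the log2 fold change was -2.07 with an adjusted p = 0.062 (edgeR likelihood ratio test).

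*Pnliprp2*, the neighbouring gene, was not called. The WT libraries held 12.8, 9.34, 10.1, 11.3 and 11.1 CPM. The KSR23 libraries held 4.44, 10.4, 14.8, 5.95 and 10.6 CPM, so that the highest value of all 10 libraries was KSR23 replicate 3 and the lowest KSR23 replicate 1. The groups overlapped and the KSR23 spread was the wider one (10.9 ± 1.33 against 9.25 ± 4.12 CPM; SD, n = 5). The log2 fold change was -0.24 (SE 0.35) with a 95% interval of -0.94 to 0.45 and an adjusted p = 0.703 in edgeR's likelihood ratio test (-0.087 and 0.98 with replicates 1 to 3 alone).

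The neighbouring lipase genes were also set against each other within each library, a comparison chosen after their values were seen and given as a description. The log2 ratio of *Pnliprp1* to *Pnliprp2* counts was 0.48, -0.30, -0.54, 0.14 and 0.58 in the WT libraries. In the KSR23 libraries it was -1.45, -2.53, -1.84, -2.66 and -1.45. The means of 0.072 ± 0.48 and -1.99 ± 0.58 (SD, n = 5) differed by -2.06, and the groups did not overlap. With replicates 1 to 3 alone the difference was -1.82.

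**Figure D3:**
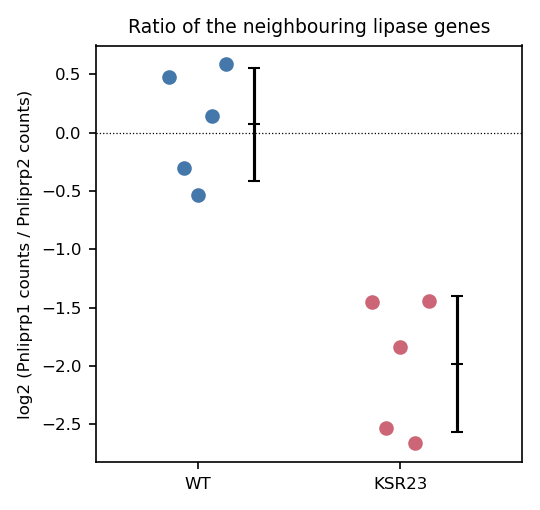
Points give the log2 ratio of *Pnliprp1* to *Pnliprp2* counts in each library, and bars give the mean and SD of 5 libraries. The WT ratios lie between -0.54 and 0.58, and the KSR23 ratios between -2.66 and -1.45.

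*Cel* was uneven within the WT group. The WT libraries had 113, 2, 0, 59 and 70 counts, or 3.50, 0.071, 0, 1.70 and 2.63 CPM, so WT replicates 2 and 3 lay at or under the floor of 3 counts. The KSR23 libraries had 0, 0, 0, 15 and 4 counts, and the groups overlapped. The means were 1.58 ± 1.55 and 0.076 ± 0.12 CPM (SD, n = 5). The log2 fold change was -4.29 (SE 1.39; 95% interval -7.01 to -1.56), with an adjusted p = 0.0333 by edgeR's likelihood ratio test, 0.0536 by its quasi-likelihood test and 0.0776 by DESeq2. The call was lost when WT replicate 1, 4 or 5 or KSR23 replicate 1, 2 or 5 was left out (adjusted p = 0.0551 to 0.0886, edgeR likelihood ratio test; log2 fold change -4.45 to -3.77), and it held when any of the other 4 libraries was left out (0.00553 to 0.0495). With replicates 1 to 3 alone the 3 KSR23 libraries had 0 counts, and the adjusted p was 0.0228 by edgeR's likelihood ratio test and 0.316 by its quasi-likelihood test.

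*Clps*, the colipase gene, stayed abundant in both groups. The WT libraries held 81.9, 55.1, 88.4, 63.9 and 85.0 CPM. The KSR23 libraries held 30.0, 42.8, 84.5, 31.7 and 59.5 CPM. KSR23 replicate 3 lay within the upper part of the WT range, and replicates 1, 2 and 4 lay below all WT libraries. The means were 74.8 ± 14.5 and 49.7 ± 22.7 CPM (SD, n = 5), and the log2 fold change of -0.59 (SE 0.34) had a 95% interval of -1.25 to 0.071 and an adjusted p = 0.231 in edgeR's likelihood ratio test (-0.49 and 0.825 with replicates 1 to 3 alone). *Clps* passed the threshold when KSR23 replicate 3 was left out (-0.87, adjusted p = 0.0258, edgeR likelihood ratio test).

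**Figure D4:**
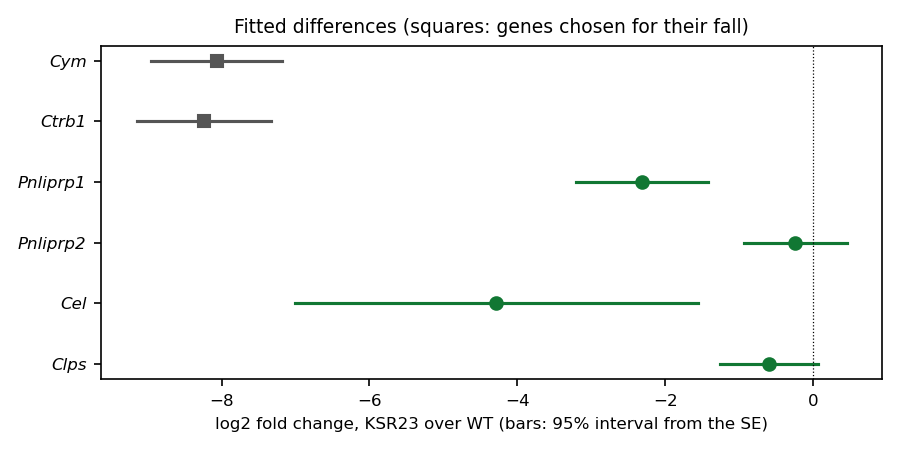
Fitted log2 fold changes (KSR23 over WT, 5 libraries each) with 95% intervals from the SE, squares for the genes chosen for their fall and circles for the others. *Olah* is left out because all KSR23 libraries were at 0; *Cym* and *Ctrb1* lie near -8, and the intervals of *Pnliprp2* and *Clps* include 0. The intervals of *Cym* and *Ctrb1* are a description and not a test, because these genes were chosen for their fall.

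The libraries of each group were strung along a common axis that held 71.7% of the within-group variance of 9732 genes. WT replicates 1 and 5 and KSR23 replicates 3 and 5 had positive scores on it (0.27 to 0.95), and the other 6 libraries had negative scores (-0.62 to -0.13). The KSR23 libraries with positive scores were the highest of their group for *Cym*, *Pnliprp1*, *Pnliprp2* and *Clps*, and the WT libraries with positive scores were the highest of theirs for *Pnliprp1*, *Ctrb1* and *Cel* but the lowest for *Cym*. With this axis as a covariate, added after the data were seen, *Clps* differed by -0.70 on the log2 scale (SE 0.21; adjusted p = 0.00473), *Pnliprp1* -2.37 (SE 0.26; adjusted p = 3.28e-17), *Pnliprp2* -0.34 (adjusted p = 0.248) and *Cel* -3.50 (adjusted p = 0.0636) in edgeR's likelihood ratio test. The axis was derived from the same libraries, so these values are a description of how the differences sit relative to it.

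Because *Ctrb1*, *Cel*, *Clps* and the pancreatic lipase-related genes are best known from the exocrine pancreas, other pancreatic enzymes were examined. Of 14 pancreatic protease genes other than *Ctrb1* in the files, 13 were tested, 11 were called lower in KSR23 and none higher by edgeR's likelihood ratio test, and 9 were called lower by its quasi-likelihood test (8.76% and 6.91% of all genes tested were called lower by these tests). With the 6 of them that lay at or under 3 counts in all KSR23 libraries set at their bound against that floor, the median log2 fold change was -3.40 or lower, against 0.027 over all genes tested. With replicates 1 to 3 alone 5 were called lower (1.35% of all genes), none was by the quasi-likelihood test of those replicates, and with a filter of 5 counts in every library 2 were. *Cela1*, an elastase gene and the most abundant of them, gave 3442, 526, 2082, 1849 and 2620 counts in the WT libraries and 405, 172, 387, 393 and 375 in the KSR23 libraries (log2 fold change -3.00, SE 0.46; adjusted p = 7.93e-08, and 0.0131 with replicates 1 to 3 alone). *Cpb1*, the carboxypeptidase B gene, gave 248, 39, 44, 80 and 155 counts in the WT libraries and 33, 10, 9, 28 and 8 in the KSR23 libraries (log2 fold change -3.30, SE 0.54; adjusted p = 3.31e-07, and 0.0118 with replicates 1 to 3 alone). The trypsinogen gene *Prss2* gave 363, 8, 11, 147 and 170 counts in the WT libraries and 0, 0, 0, 1 and 0 in the KSR23 libraries. *Try4* and *Try5*, related trypsinogen genes, share 43.9 and 33.3% of their 75-base stretches with other transcripts, so their counts are uncertain, as are those of *Prss1* (37.1%) and *Prss3* (53.9%), which are among the 11 called. *Try10*, *Cela2a* and *Cela3b*, also among the 11, share 24.7, 14.3 and 11.4%.

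*Cel* and the trypsinogen genes were low in the same WT libraries, replicates 2 and 3, by far more than *Cym* and *Ctrb1* varied. *Prss2* had 8 and 11 counts in those libraries and *Cel* had 2 and 0. *Ctrb1* was also lowest there within WT, at 80.0 and 73.2 CPM against 80.7 to 94.5 CPM in the other 3 libraries, a much smaller difference, and *Cym* was at 2032 and 1389 CPM. *Pnliprp1* was lowest in the same libraries within WT, at 7.57 and 6.94 CPM, which is still above the highest KSR23 library at 4.13 CPM. The source of these transcripts was not tested.

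**Figure D5:**
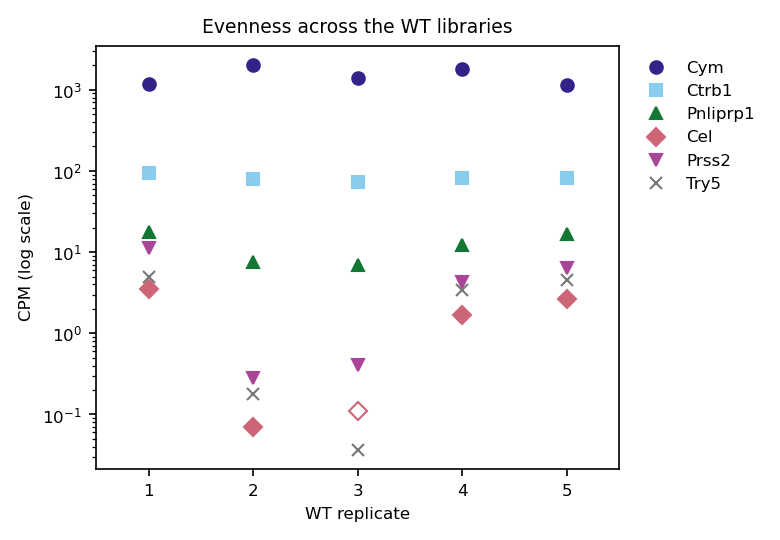
CPM (log axis) of 4 of the milk-digesting genes and of the trypsinogen genes *Prss2* and *Try5* in each WT library, with an open marker for 0 counts drawn at the CPM of 3 counts. *Cel*, *Prss2* and *Try5* are low in replicates 2 and 3. *Ctrb1* lies between 73.2 and 94.5 CPM, and *Cym* between 1150 and 2032 CPM with its highest value in replicate 2.

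Of 20 markers of pancreatic acinar cells, 14 were tested, 8 were called lower (7 by the quasi-likelihood test, and 4 with replicates 1 to 3 alone, or none by their quasi-likelihood test) and 1, *Bhlha15*, was called higher. A filter of 5 counts in every library left 2 called lower. Over all genes 8.76% were called lower and 9.73% higher, with 6.91% lower by the quasi-likelihood test and 1.35% lower with replicates 1 to 3 alone. The list shares genes with the protease list. Its summed level was 81.7 to 204 CPM in WT and 30.2 to 75.8 CPM in KSR23. Most of that sum was *Cela1* and *Rnase1*, and the following splits were chosen after the values were seen. Without these genes the sum over the other 12 genes was 33.0, 4.46, 4.15, 13.7 and 23.4 CPM in WT and 4.31, 8.995, 5.01, 6.20 and 9.71 CPM in KSR23. The groups then overlapped, and much of the KSR23 sum was *Bhlha15*. Without it as well, the sum over 11 genes was 32.4, 3.92, 3.74, 12.7 and 22.9 CPM in WT and 2.52, 1.97, 3.86, 1.86 and 3.56 CPM in KSR23, where WT replicates 2 and 3 lay close to the highest KSR23 libraries. The acinar transcription factor gene *Ptf1a* had 0 counts in all 10 libraries, but an antisense gene overlaps its exons over 32.6% of its 75-base stretches, where reads may not have been counted. *Amy2a5*, an amylase gene, also had 0 counts, but 47.8% of its 75-base stretches occur in other transcripts and reads with several alignments were not counted. *Pnlip*, the gene of the classical pancreatic lipase, had 3 counts in WT replicate 4, 1 count in KSR23 replicate 4 and 0 elsewhere. Of the 8 pancreatic lipase and amylase genes in the files, 2 were tested and neither was called, by either edgeR test or with replicates 1 to 3 alone. The part of acinar transcripts in the falls of *Ctrb1*, *Cel* and *Pnliprp1* was not tested.

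*Cym* is best known from the stomach, and gastric genes were examined for that reason. Of 4 further genes of gastric digestive enzymes, 3 were tested and 1 was called lower (8.76% of all genes), with none called from replicates 1 to 3 alone. *Pga5*, a pepsinogen gene, gave 238, 126, 171, 182 and 172 counts in the WT libraries and 72, 27, 90, 27 and 70 in the KSR23 libraries and was lower (log2 fold change -1.92, SE 0.48; adjusted p = 0.00138, edgeR likelihood ratio test). *Lipf*, the gastric lipase gene, had 6 to 39 counts in WT and 1 to 131 in KSR23 (log2 fold change 1.40, SE 0.91; adjusted p = 0.313), and *Pgc*, the progastricsin gene, had 4 to 14 and 0 to 11 (log2 fold change -1.25, adjusted p = 0.284). Of 12 gastric epithelium markers in the files, which include those 3 enzymes, 8 were tested and 4 were called lower (2 by the quasi-likelihood test, and 1 with replicates 1 to 3 alone), against 8.76%, 6.91% and 1.35% of all genes. *Gkn3*, a gastrokine gene, had the largest difference of them, at 281 to 412 counts in WT and 8 to 54 in KSR23 (log2 fold change -3.77, SE 0.37; adjusted p = 1.02e-18, edgeR likelihood ratio test, and 1.09e-07 with replicates 1 to 3 alone). *Atp4a*, a proton pump subunit gene of acid-secreting cells, had 32, 46, 4, 36 and 20 counts in the WT libraries and 0, 7, 7, 8 and 5 in the KSR23 libraries (adjusted p = 0.0103, edgeR likelihood ratio test). *Muc6*, a gland mucin gene, had 63, 1, 1, 28 and 20 counts and 13, 5, 0, 1 and 3 (adjusted p = 0.0418), and its call was lost without WT replicate 1, 4 or 5 or KSR23 replicate 2, 3, 4 or 5 (adjusted p up to 0.178). The call of *Atp4a* was lost without WT replicate 2 (0.0517). The summed level of the markers was 17.0 to 22.9 CPM in WT and 1.58 to 10.8 CPM in KSR23. The surface cell markers *Tff1* and *Muc5ac* had 0 counts in all 10 libraries. *Gkn1*, another gastrokine gene, had 0 to 9 counts in WT and 1 to 18 in KSR23. *Gif*, the intrinsic factor gene, had 0 counts in WT and 8 in 1 KSR23 library. The part of gastric transcripts in the fall of *Cym* was not tested.

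Other intestinal and tissue lipases were called in both directions. Of 14 such genes, 13 were tested, 5 were called higher and 2 lower (9.73% and 8.76% of all genes), 1 was called lower by the quasi-likelihood test (6.91% of all genes), and their median log2 fold change was 1.10. *Pla2g2a*, a secreted phospholipase A2 gene, rose from 9 to 25 counts in WT to 467 to 919 in KSR23 (log2 fold change 4.90, SE 0.38; adjusted p = 3.57e-27, and 2.51e-09 with replicates 1 to 3 alone). *Liph*, a lipase gene that makes lysophosphatidic acid, rose (83.5 ± 16.7 to 211 ± 74.8 CPM; SD, n = 5; adjusted p = 0.000339), as did *Lipg*, the endothelial lipase gene (log2 fold change 2.99), *Pla2g4c* (3.56) and *Daglb* (2.23). *Daglb* shares 23.4% of its 75-base stretches with *Rac1*, whose exons it overlaps, so its counts are uncertain. *Aadac*, a microsomal esterase gene, fell to 316 ± 158 CPM from a WT level of 895 ± 125 (SD, n = 5), a log2 fold change of -1.50 with SE 0.34 and an adjusted p = 0.000297 in edgeR's likelihood ratio test, and *Mgll*, the monoglyceride lipase gene, had a log2 fold change of -1.06 that passed the likelihood ratio test (adjusted p = 0.037) and not the quasi-likelihood test (0.0596). *Mgll* was not called without WT replicate 2, 3 or 4 or KSR23 replicate 2, 3, 4 or 5 (adjusted p up to 0.141), which left *Aadac* as the 1 lower call. With replicates 1 to 3 alone, 3 of the 14 were called higher and none lower (2.01% and 1.35% of all genes). *Lipa*, the lysosomal acid lipase gene, was at 412 ± 117 CPM in WT and 276 ± 128 in KSR23 (SD, n = 5; adjusted p = 0.268).

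*Olah* acts on the product of fatty acid synthase, and the genes of fatty acid synthesis were examined beside it. Of 12 fatty acid synthesis genes, all tested, 2 were called higher and none lower by either edgeR test, against 9.73% and 8.76% of all genes by the likelihood ratio test, and with 12 genes these counts are not read as a property of the pathway. The median log2 fold change was 0.25. *Fasn*, fatty acid synthase itself, was at 9.57 ± 2.50 CPM in WT and 26.0 ± 9.21 in KSR23 (SD, n = 5), higher by 1.44 on the log2 scale (SE 0.33; adjusted p = 0.000383, edgeR likelihood ratio test). *Acly*, which supplies acetyl-CoA, was at 55.8 ± 16.7 and 126 ± 32.1 CPM (SD, n = 5), higher by 1.17 on the log2 scale (SE 0.31; adjusted p = 0.00266, edgeR likelihood ratio test). With replicates 1 to 3 alone no gene of the list was called. *Elovl6*, the most abundant, was at 90.5 ± 23.2 CPM in WT and 141 ± 60.3 in KSR23 and was not called (adjusted p = 0.195).

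Enzymes of the enterocyte brush border, which complete digestion at the cell surface, gave 6 genes higher and 1 lower of 12 tested (9.73% and 8.76% of all genes), with a median log2 fold change of 0.81 (6 higher and none lower by the quasi-likelihood test; 3 higher with replicates 1 to 3 alone; 8.47% and 2.01% of all genes were called higher in those fits). *Tmprss15*, the gene of enteropeptidase, which activates trypsinogen, had the largest difference of them, at 6, 4, 9, 15 and 8 counts in the WT libraries and 0, 697, 138, 764 and 796 in the KSR23 libraries (log2 fold change 5.51, adjusted p = 8.03e-05, edgeR likelihood ratio test). KSR23 replicate 1 lay below all WT libraries and the other 4 far above them. The peptidase genes *Enpep* (log2 fold change 2.90), *Mep1b* (1.61) and *Dpp4* (1.03) and the disaccharidase genes *Mgam* (2.69) and *Sis* (1.79) were higher. *Lct*, the lactase gene, was at 616 ± 119 CPM in WT and 352 ± 116 in KSR23 (SD, n = 5), with an adjusted p = 0.0442 by edgeR's likelihood ratio test and 0.0627 by its quasi-likelihood test. It was not called in the 8 fits that left out a library other than WT replicate 3 or KSR23 replicate 3 (adjusted p up to 0.152, edgeR likelihood ratio test). The 13 enterocyte and epithelium markers were detected in every library and summed to 98730 to 206300 CPM in WT and 67870 to 120400 CPM in KSR23. Of these markers, 2 were called higher (*Krt20* and *Cdh1*; 9.73% of all genes) and 2 lower (8.76% of all genes; *Fabp1* and *Fabp2*, fatty acid-binding proteins, with log2 fold changes of -1.01 and -1.19), and the quasi-likelihood test called 1 in each direction (8.47% of all genes higher and 6.91% lower). With replicates 1 to 3 alone, 1 was called higher and none lower (2.01% and 1.35%). Without 1 library *Fabp1* was called in 3 of 10 fits, those without WT replicate 2 or KSR23 replicate 3 or 5, and *Cdh1* in 5 of 10, those without WT replicate 2 or 4 or KSR23 replicate 1, 3 or 5. The part of this difference in the falls above was not tested.

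The genes whose profiles over the 10 libraries were most like those of the strongly reduced genes were found by the root mean square difference of log2 CPM, each gene centred on its mean over all libraries, among 12889 genes. The nearest to *Cym* was *Ctrb1* (0.87), and the reverse held. *Aqp8*, a water channel gene, was next for both (1.08 from *Cym* and 1.07 from *Ctrb1*), with 3968 to 12515 counts in WT and 15 to 146 in KSR23. The third was *Csrp3* for *Cym* (1.36) and *S100b* for *Ctrb1* (1.20). *Olah* was nearest to *Dcpp1* (0.80), *Insl5* and *A630076J17Rik* (0.88 each). These likenesses rest mainly on the difference between the groups, which chose the genes.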

How the data were processed

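The deposited values were whole-number counts of reads per gene symbol, made by the authors with TopHat2 2.1.0 on the mm10 build and HTSeq 0.6.1p1, per the submitters' processing notes and the study's methods. They were not normalized, and reads with several alignments were not counted. The strand setting is not given in the sources used here. Libraries were made from picogram amounts of RNA by oligo-dT priming and PCR without molecular identifiers, so floors cover counting error only, and the 3-count floor corresponded to 0.0427 to 0.119 CPM. Counters' own totals were not used as genes.

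Groups and replicate numbers came from the sample titles. The 17632 genes that reached 5 counts in any library were fitted in edgeR 4.0.16 (R 4.3.3) with TMM factors and the group as the only term, over all 10 libraries, and tested as in the study with the likelihood ratio test, with Benjamini-Hochberg adjustment over all genes tested and a threshold of 0.05. The quasi-likelihood test, DESeq2 1.42.0 and other filters, scalings and sample sets were alternatives. The fit was tested on simulated data. The fits with replicates 1 to 3 by the quasi-likelihood test, with the within-group axis, and the ratio of the lipase genes were added after seeing the data.

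The members and gene lists were chosen with earlier results of these data known. From each list, the genes named were up to 6 with the highest mean CPM or the largest difference among those called, and for each chosen gene the 3 with the nearest profile. *Bhlha15*, the marker genes at 0 and *Pgc*, *Pga5* and *Pnlip* were named because a count rests on them. *Gkn1* was named beside the markers at 0, and genes with shared stretches for that reason. The rule sets an upper limit, so other genes that it allows enter the counts only. One gene is not reported here. Upstream sequences are RefSeq's (GRCm38.p6), and gene positions GENCODE's (M21, the same build). No column of per-sample values was left unused.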

Additional observations from a re-analysis of the deposited data

How the results depend on the processing

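The number of genes called differing (3261) was 579 with replicates 1 to 3 alone, 140 with the same libraries and the quasi-likelihood test, and 6499 with the within-group axis as covariate. Leaving out each library in turn gave 2370 to 3802. *Pnliprp1* kept its call under each alternative except replicates 1 to 3 alone (log2 fold change -2.07, adjusted p = 0.062 in edgeR's likelihood ratio test and 0.201 in its quasi-likelihood test), and ran from -2.58 to -2.06 without 1 library. *Cel* lost its call in the quasi-likelihood test (-4.21), in DESeq2 (-4.44), with the axis (-3.50) and in the quasi-likelihood test of replicates 1 to 3, where the log2 fold against the floor was -3.79 or lower, and ran from -5.59 to -3.77 without 1 library, with 4 of 10 such fits calling it. *Clps* was called with the axis (-0.70) and without KSR23 replicate 3, and ran from -0.87 to -0.41. *Pnliprp2* was called in none of these fits and ran from -0.48 to -0.019. Without 1 library *Cym* ran from -8.46 to -7.80, *Ctrb1* from -9.01 to -7.96, the lower bound for *Olah* from 16.5-fold to 25.1-fold, and the difference in the lipase ratio from -2.21 to -1.89. The genes called lower without 1 library numbered 9 to 11 pancreatic proteases, 7 to 9 acinar markers, 3 to 4 gastric markers, 1 to 2 other lipases, 0 to 1 brush border enzymes and 1 to 3 enterocyte markers. With the replicate block the gastric markers had 2 and the last 3 lists named had 1, 0 and 1. With library totals alone the other lipases had 1. A filter of 5 counts in every library left 2 gastric markers and 2 acinar markers. No direction of the 7 genes or of the lipase ratio was reversed in a fit that gave a value. The causes were not tested, other than that replicates 1 to 3 are fewer libraries.

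*Ctrb1*, *Olah* and *Cel* have no value with a filter of 5 counts in every library, which removes them. Same-numbered libraries of the groups did not all deviate together (correlations of -0.74, 0.41, -0.69, 0.36 and 0.49). The common axis held 71.7% of the within-group variance, so these values cannot show whether the numbers pair the libraries. With the replicate number as a block, 2202 genes were called, and *Pnliprp1* (-2.42), *Pnliprp2* (-0.35), *Cel* (-4.77) and *Clps* (-0.68) kept their side of the threshold. At these depths *Cel* and *Olah* lie near the floor, which limits the size of their differences.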
